A study of Mus musculus with 2 samples.

Results

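The cells described here are luminal mammary cells of the C3-TAg library that carried RNA of several immediate early genes at the same time. A cell was a member when at least 4 of the 5 genes Atf3, Egr1, Egr2, Nr4a1 and Arc had 1 UMI (a unique molecular identifier, which marks a captured mRNA molecule) or more. Members also had fewer than 5 UMIs per 10000 of Areg, Pgr, Esr1 and Cited1 combined, which leaves out hormone-receptor-expressing cells, and under 0.5% of their UMIs in the caseins Csn1s1, Csn1s2a, Csn2 and Csn3. The rule gave 719 cells of the 3494 C3-TAg cells that passed the receptor and casein limits. All kept C3-TAg cells numbered 8458, and both libraries together held 15864 kept cells. The members were chosen by the UMI counts of these 5 genes, so the genes' own levels are description and are left out of every comparison that follows.

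The series profiled luminal cells sorted from mammary glands of 3.5-month-old mice (strain FVB/NJ) with the 10x Genomics 3′ chemistry. The genotypes were Sox9-GFP;C3-TAg and, as the control called WT, Sox9-GFP, so that both groups carried the GFP reporter of Sox9. The C3-TAg transgene drives SV40 T antigens, which bind p53 and RB proteins, from the C3(1) promoter, and the labels do not say how many mice a library pooled. Each genotype was 1 library, so differences between genotypes have no replicate check, and cells are not replicates. Intervals given here are 95% counting intervals and cover counting error only.

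Immediate early genes are switched on within minutes of a stimulus from transcription factors that already sit in the cell, so no new protein is needed. SRF with its ternary complex partners, acting downstream of ERK, and CREB, acting downstream of calcium and cyclic AMP, are the best known of these, and many of the induced RNAs carry AU-rich elements and are short-lived. Growth factors, stretch, stress and enzymatic tissue dissociation are all known to induce them in epithelium. Among the rule genes, Atf3 encodes a stress-induced bZIP repressor, Egr1 and Egr2 zinc-finger transcription factors, Nr4a1 an orphan nuclear receptor, and Arc a capsid-forming protein known mostly from neurons.

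RefSeq promoter entries on GRCm38.p6 were matched for 3 of the rule genes, Atf3, Egr2 and Nr4a1. Egr1 and Arc were not matched, so the counts below do not cover them. Entries were also matched for 18 of the other immediate early transcription factors, with 27025 genes in the table. The CRE core TGACG, searched on both strands in the 250 bases before each start, occurred in 3 of those 3, in 13 of the 18 (72.2%), and in 5347 of all genes (19.8%). The CArG box, the motif of SRF, occurred in 1 of 3, in 1 of 18, and in 439 of all genes (1.62%). The full CRE, TGACGTCA, was in 0 of 3 and 1 of 18, against 1.77% of all genes. AP-1 sites (TGANTCA) were in 0 of 3 and 1 of 18, against 7.82%, and TATA boxes (TATAAA) in 0 of 3 and 3 of 18, against 14.3%. A full CRE also counts as a CRE core. A gene counted when any of its starts had the motif, and the 3 rule genes had 7 starts between them. Over all 32851 promoters, alternative starts included, the CRE core was in 17.8% and the CArG box in 1.47%. The 3 stretches shown are the 150 bases before a transcription start of Egr2 and Nr4a1, which were in the rule, and of Fos, which had the highest ratio outside it. Capitals mark the CRE core on either strand and, in Egr2 alone among these 3, the CArG box. The Egr2 stretch shown has 3 marked sites, and the stretches before the other Egr2 starts have 0, 1, 3 and 2. The Egr2 stretch is chr10:67537719-67537868, the Nr4a1 stretch is chr15:101266696-101266845 and the Fos stretch is chr12:85473740-85473889, all on the plus strand and all running up to the start site. In the GENCODE annotation the Fos stretch lies before the gene, while the Egr2 and Nr4a1 stretches lie within the bounds of their own genes. A match describes the letters and is no evidence that a factor binds there.
Egr2: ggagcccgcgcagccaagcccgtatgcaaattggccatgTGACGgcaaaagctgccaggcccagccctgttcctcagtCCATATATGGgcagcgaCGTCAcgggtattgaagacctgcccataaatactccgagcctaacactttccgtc
Nr4a1: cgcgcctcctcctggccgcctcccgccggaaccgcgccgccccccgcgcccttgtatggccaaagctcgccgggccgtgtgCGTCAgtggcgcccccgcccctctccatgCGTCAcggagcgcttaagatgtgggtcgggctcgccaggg
Fos: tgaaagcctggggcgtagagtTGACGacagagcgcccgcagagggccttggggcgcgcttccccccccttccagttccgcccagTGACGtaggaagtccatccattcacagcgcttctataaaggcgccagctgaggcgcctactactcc

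The C3-TAg library held 9575 barcodes with 91932121 UMIs and the WT library 8993 barcodes with 91133082 UMIs. After the limits on genes, UMIs and mitochondrial share, 8458 C3-TAg and 7406 WT cells remained, and 17 of their barcodes occurred in both libraries. Scrublet marked 541 C3-TAg cells (6.40%) and 367 WT cells (4.96%) as doublets, and these were kept because the member rule has no step for them. Members were luminal by their defining markers. Epcam had at least 1 UMI in all 719 members, Krt8 in 716 and Krt18 in 717, and the 4 luminal markers summed to 11030 CPM (UMI counts scaled to a sum of 1e+06) in members and 11314 CPM in matched cells. Basal markers summed to 326 CPM in members and 444 CPM in matched cells, almost all of it Krt14, with Krt5 at 8 UMIs in all members. Endothelial markers summed to 0.993 and 11.7 CPM, fibroblast markers to 3.20 and 6.66 CPM, and myeloid markers to 6.62 and 4.06 CPM. T and NK cell markers and adipocyte markers had 0 UMIs in members, so up to 3 UMIs in 9065787 remain allowed. B cell markers had 3 UMIs, neural markers 4, pericyte markers 3 and Schwann cell markers 15 in all members.

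Members carried the rule genes at very uneven levels. Atf3 summed to 2385 CPM in members, with a median of 13 UMIs per cell and a highest cell of 471, against 429 CPM in the 2775 comparison cells with at most 3 of the 5 genes. Egr1 was at 2071 CPM with a median of 8 and a maximum of 470 UMIs in members, against 273 CPM. The other rule genes were much scarcer. Nr4a1 was at 607 CPM in members and 96.8 CPM in comparison cells, Arc at 255 and 31.4 CPM, and Egr2 at 148 and 22.2 CPM. Median counts in members were 4 UMIs for Nr4a1 and 1 UMI for both Arc and Egr2, so membership often rested on a single molecule of these genes. Of the 471 members with exactly 4 genes, 209 lacked Arc, 175 lacked Egr2, 42 lacked Nr4a1, 35 lacked Egr1 and 10 lacked Atf3. On either side of the limit, Atf3 was at 1813 CPM in cells with 4 genes and 933 CPM in cells with 3, and Egr1 at 1433 and 493 CPM. Of the other limits, 36 members lay within 1 UMI per 10000 of the receptor limit, 17 within 0.1 percentage points of the casein limit and 7 within 1 percentage point of the mitochondrial limit.

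No gap separated members from the other casein-low cells. Counts of 0, 1, 2, 3, 4 and 5 detected genes occurred in 443, 881, 812, 639, 471 and 248 cells. The share of members went with depth: split into 5 equal groups by UMI total, it was 9.73% in the shallowest, from 1008 to 5894 UMIs, and 38.8% in the deepest, from 13013 to 56920 UMIs. When every cell was thinned to 3000 UMIs, 231 of 3420 cells (6.75%, exact binomial interval 5.94 to 7.65%) still had at least 4 of the genes, with 74 shallower cells left out, against 20.6% (19.2 to 22.0%) at full depth. Each member was therefore compared with the nearest unused comparison cell by UMI total. The 719 pairs had median totals of 11358 UMIs in members and 11291 UMIs in matched cells, with a median gap of 0.0481%. In 51 pairs the gap was over 5%.

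Outside the rule, the members' profile had further immediate early genes at the top and milk and secretory genes at the bottom. Of 11791 genes with at least 20 UMIs over both sets of cells, 910 (7.72%) were at least 1.5-fold higher in members and 759 (6.44%) at least 1.5-fold lower. The list counts against matched cells given below use these 11791 genes and are to be read beside these shares. Among the 3613 genes of at least 50 CPM, 178 (4.93%) were higher and 73 (2.02%) lower. The median log2 ratio over all genes measured was 0.03. With 1 library, "higher" and "lower" mean past 1.5-fold and no test stands behind them.

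AP-1 subunits and EGR factors led the genes that were higher. Of 29 other immediate early transcription factors, 20 were higher and 1 was lower, with a median log2 ratio of 0.88. Fos, which pairs with JUN proteins to form AP-1, was at 1519 CPM in members and 204 CPM in matched cells, a log2 ratio of 2.90 (2.83 to 2.97). Per cell, Fos ran from 0 to 401 UMIs per 10000 in members with a median of 2.90, and from 0 to 118 with a median of 0.870 in matched cells. The ranges overlap widely, and 79.8% of members and 59.5% of matched cells had a Fos UMI. Egr3, another zinc-finger factor of the EGR family, was at 69.6 CPM in members and 12.3 CPM in matched cells (log2 ratio 2.50, 2.20 to 2.81). An Egr3 UMI was found in 33.2% of members and 11.4% of matched cells. Fosb was at 348 and 90.2 CPM (1.95, 1.83 to 2.06). The AP-1 partners Jun and Junb had smaller ratios, with Jun at 1619 CPM in members and 636 CPM in matched cells and Junb at 1781 and 700 CPM, both at a log2 ratio of 1.35. Ier2, a short nuclear immediate early protein, was at 1336 and 385 CPM (1.80). Csrnp1, a nuclear protein known to be induced by AXIN1, was at 251 and 80.5 CPM. Klf2, a Krüppel-like factor known from endothelium, was at 54.4 and 18.2 CPM, with 35.5% of the members' UMIs in 10 cells. At the other end of the list, Cebpd, a C/EBP factor of the acute phase response, was lower at 705 CPM in members and 1063 CPM in matched cells (log2 ratio −0.59). Cebpb had 802 and 1098 CPM (−0.45), within 1.5-fold.

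**Figure D1:**
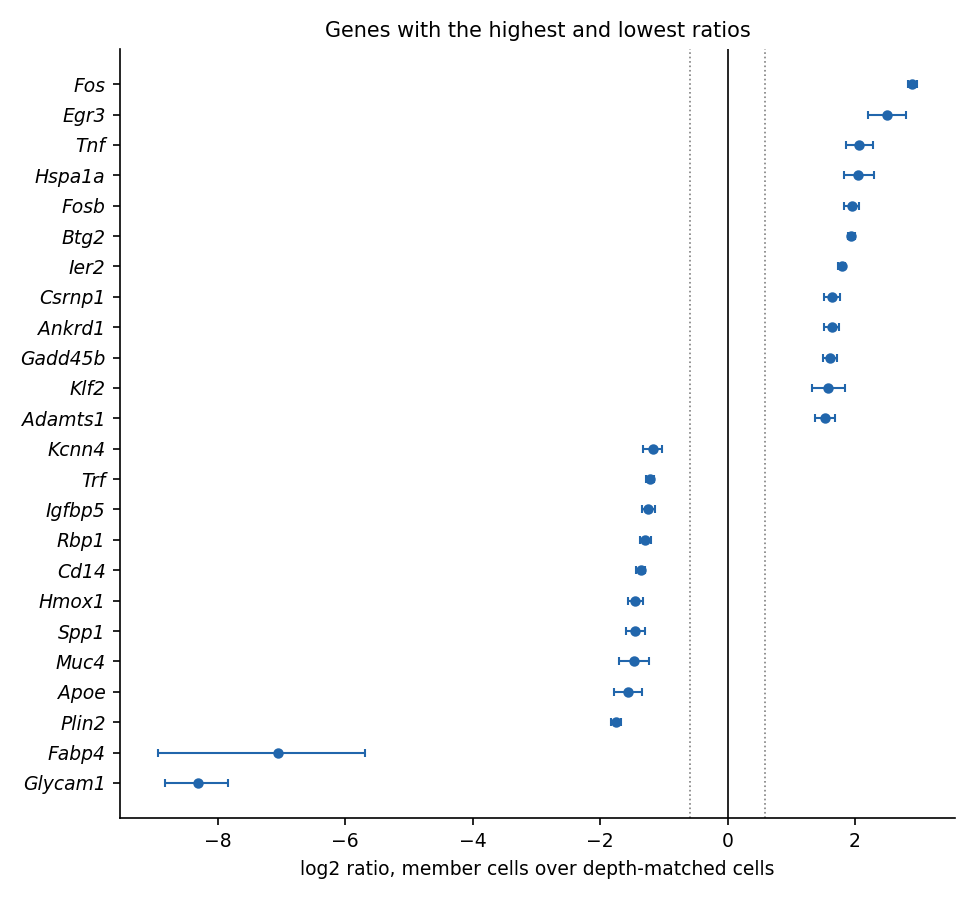
Log2 ratio of CPM in 719 member cells over 719 depth-matched cells, for 12 genes at the top and 12 at the bottom of all those with at least 50 CPM, with exact 95% counting intervals. Dotted lines mark 1.5-fold, and Fos stands highest at 2.90 while Glycam1 and Fabp4 stand far below the rest.

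Among 21 feedback inhibitors of MAP kinase signalling, 10 were higher and 1 was lower, and the median was 0.38; the other 10 did not pass 1.5-fold. Dusp8 was at 355 CPM in members and 135 CPM in matched cells, and Dusp1 at 347 and 150 CPM. Both encode phosphatases that remove phosphate from MAP kinases. Spry1, an inhibitor of receptor tyrosine kinase signalling, was at 92.7 and 45.0 CPM. Phlda1, also induced by ERK, was at 1791 and 1860 CPM (−0.06). Of 9 EGF family ligands and receptors, 2 were higher and none lower. The ligand Hbegf, heparin-binding EGF-like growth factor, was among the most abundant of them at 1529 CPM in members and 703 CPM in matched cells (log2 ratio 1.12, 1.08 to 1.17). The receptor genes differed little, with Egfr at 33.1 and 28.8 CPM, Erbb3 at 89.8 and 91.3 CPM and Erbb2 at 29.1 and 32.4 CPM.

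Targets of the upstream factors were mixed. Of 18 measured CREB targets and cofactors, 4 were higher and 1 lower, with a median of 0.16. Gem, a small GTPase, was at 27.8 CPM in members and 9.03 CPM in matched cells, and the clock gene Per1 at 54.4 and 20.2 CPM, while the phosphodiesterase Pde4b was at 225 and 310 CPM (−0.46). Of 27 SRF and YAP targets, 9 were higher and 2 lower, with a median of 0.45. Ankrd1, a nuclear ankyrin-repeat protein much used as a YAP readout, was at 260 and 83.5 CPM (1.64, 1.52 to 1.76). Cyr61, a matricellular protein, was at 4055 and 1902 CPM (1.09). Flna, the actin crosslinker, was at 159 and 158 CPM.

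Several inflammatory ligands and NF-kB feedback genes were higher. Of 24 measured chemokines, cytokines and growth factors, 14 were higher and 3 lower, with a median of 0.64. Tnf, encoding tumour necrosis factor, was at 108 CPM in members and 25.7 CPM in matched cells (2.07, 1.86 to 2.28), and 45.2% of members and 17.2% of matched cells had a Tnf UMI. Il23a, a subunit of interleukin 23, was at 96.6 and 38.4 CPM. Tslp, thymic stromal lymphopoietin, was at 20.7 and 5.53 CPM (1.91, 1.45 to 2.39), but 10 members held 75.5% of the members' UMIs and 1 matched cell held 28 of the 49 UMIs of matched cells, and with all 5 rule genes required the log2 ratio was −0.57. Csf3, the granulocyte growth factor, went the other way at 63.0 CPM in members and 116 CPM in matched cells (−0.87). Of 20 NF-kB genes, 8 were higher and none lower, and 12 did not pass 1.5-fold. The median of all 20 was 0.52, and it was 0.24 when pairs were made within clusters, an alternative chosen after seeing the data. The feedback inhibitors Nfkbiz and Tnfaip3 were at 196 and 48.4 CPM in members, against 85.5 and 21.3 CPM in matched cells.

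Some RNA decay factors and p53 targets were also higher. Of 14 genes of AU-rich element binding and deadenylation, 6 were higher and none lower, with 8 within 1.5-fold and a median of 0.44. Btg2, an antiproliferative protein that recruits deadenylase and is also a p53 target, was at 1166 CPM in members and 303 CPM in matched cells (1.94, 1.88 to 2.01), with a UMI in 96.2% of members and 74.1% of matched cells. Zfp36, tristetraprolin, was at 428 and 157 CPM (1.45). Gadd45b, a stress sensor that binds MAP kinase kinases, was at 321 and 105 CPM (1.61). Of 23 p53 targets, 7 were higher and 1 lower, with a median of 0.27. The BH3-only gene Pmaip1 was at 79.6 and 32.5 CPM and the kinase Plk3 at 175 and 71.6 CPM, but Trp53inp1 was at 12.1 and 27.2 CPM (−1.16).

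Stress lists were less uniform. Of 19 heat shock proteins, 6 were higher and none lower, with a median of 0.14. Hspa1a, the inducible HSP70, was at 87.1 CPM in members and 21.0 CPM in matched cells (2.05), but 10 members held 69.0% of the members' Hspa1a UMIs. Hspb1, a small heat shock protein, was at 1748 and 870 CPM (1.01). Of 22 integrated stress response genes, 2 were higher and 3 lower, with a median of 0.15, where 7.72% of all genes were higher and 6.44% lower. Ddit3 was at 126 and 46.4 CPM and Xbp1 at 113 and 206 CPM. Genes known to respond to tissue dissociation, with immediate early factors taken out, were higher in 13 of 35 and lower in none, with a median of 0.34. Members and matched cells came from the same digestion and the same sort, and the part of handling in these levels was not tested. Members had a lower median share of ribosomal protein UMIs than matched cells (15.2% and 18.5%) and close mitochondrial shares (3.51% and 3.68%), and the part of these shares in the ratios was not tested.

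Genes of the secretory alveolar programme were lower in members. Of 13 measured milk genes outside the rule, 10 were lower and none higher, with a median log2 ratio of −1.03. The secretory and antimicrobial list gave 10 lower and 1 higher among its 14 measured genes, and its median was −0.83. The casein limit applied to both sets of cells, and median casein shares were 0.0156% in members and 0.0226% in matched cells, so a part of this difference runs along what the rule limited. Plin2, the coat protein of lipid droplets, was at 176 CPM in members and 593 CPM in matched cells (−1.75, −1.83 to −1.67), with a UMI in 46.0% of members and 69.0% of matched cells. Cd14, the lipopolysaccharide co-receptor and a luminal progenitor marker, was at 281 and 721 CPM (−1.36). Spp1, the milk phosphoprotein osteopontin, was at 55.7 CPM in members and 152 CPM in matched cells, and the apolipoprotein gene Apoe at 25.7 and 75.6 CPM. Muc4, a membrane mucin, was at 22.6 and 62.5 CPM, and Hmox1, haem oxygenase 1, at 83.2 and 226 CPM. Glycam1 and Fabp4 had the lowest ratios of all, but few cells set them. Glycam1 was at 3.97 and 1258 CPM, with 99.8% of the matched cells' UMIs in 10 cells. Of the 519 Fabp4 UMIs of matched cells, 506 were in 1 cell. In the comparison cells nearly all UMIs of both genes lay in cluster 6, whose leading genes included Selp and Ackr1 of vascular endothelium.

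Luminal keratin and junction genes were close between the 2 sets, and some progenitor and alveolar regulators were lower. Of 16 luminal keratin and junction genes, 1 was higher and none lower. Of 18 progenitor and alveolar regulators, none was higher and 5 were lower, among them Gata3 at 86.3 CPM in members and 138 CPM in matched cells. Aldh1a3 was at 275 and 219 CPM and Kit at 87.0 and 69.7 CPM, within 1.5-fold. Krt17, a keratin of basal and stressed epithelium, was at 650 and 257 CPM (1.34, 1.27 to 1.41) and its relative Krt16 at 53.4 and 25.3 CPM (1.08), whereas Krt14 was at 322 and 429 CPM (−0.42). Sox9, the gene whose reporter both genotypes carry, was at 573 and 503 CPM (0.19), and Vtcn1, which encodes the checkpoint ligand B7x, at 18.9 and 17.2 CPM (0.14, −0.19 to 0.46). Neither passed 1.5-fold. All 15 MHC class I pathway genes lay within 1.5-fold.

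Few proliferation genes passed 1.5-fold. Of 26 E2F and S phase genes, 1 was higher and none lower (median 0.09), and of 24 G2M genes, 1 was higher and none lower (median 0.35). The G2M median was 0.69 when every cell was thinned to 3000 UMIs and 1.35 against cells with 0 of the 5 genes. The value of 1.35 came from the deepest members set against all cells with 0 genes, so depth was not matched in it. At least 2 UMIs of the G2M list were found in 97.9% of members and 92.6% of matched cells. The median count of the list was 32 UMIs in members, 20 in matched cells and 9 in all comparison cells. Matching by UMI total thus also picked cells with more G2M UMIs, and its part in the G2M ratios was not tested. Matrix and mesenchymal genes were lower in 8 of 21 and higher in none, with a median of −0.49, but this turned to 0.078 when cells of clusters 6 and 9 were left out, an alternative chosen after seeing the data. NRF2 targets were lower in 5 of 16 and higher in 1, with a median of −0.42. The remaining lists had medians between −0.21 and 0.31 and at most 3 genes past 1.5-fold in either direction.

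Levels of genes outside the rule were graded along the number of rule genes detected. In cells thinned to 3000 UMIs, Fos was at 124, 196, 238, 514, 1364 and 2827 CPM in cells with 0, 1, 2, 3, 4 and 5 of the genes at full depth. Btg2 was at 114, 187, 345, 697, 1005 and 1801 CPM along the same order. Both were higher at each step. Hbegf, Krt17 and Ankrd1 were also higher with each gene up to 4, and differed less between 4 and 5, with Hbegf at 1624 CPM in cells with 4 genes and 1688 CPM in cells with 5. Plin2 ran the other way, with 912, 682, 418, 251, 157 and 139 CPM. Sox9 varied only between 473 and 607 CPM. Thinning evened out the counts but not the grouping, since median totals ran from 6713 UMIs in cells with 0 genes to 12277.5 in cells with 5. Members and other cells also differed in their mix of the expression clusters described below. The part of depth and of cluster mix in these gradients was not tested. In 248 depth-matched pairs of members with all 5 genes and members with 4, Fos was at 2282 and 946 CPM (log2 ratio 1.27, 1.21 to 1.33) and Egr3 at 109 and 42.9 CPM (1.34), while Hbegf was at 1600 and 1424 CPM (0.17).

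**Figure D2:**
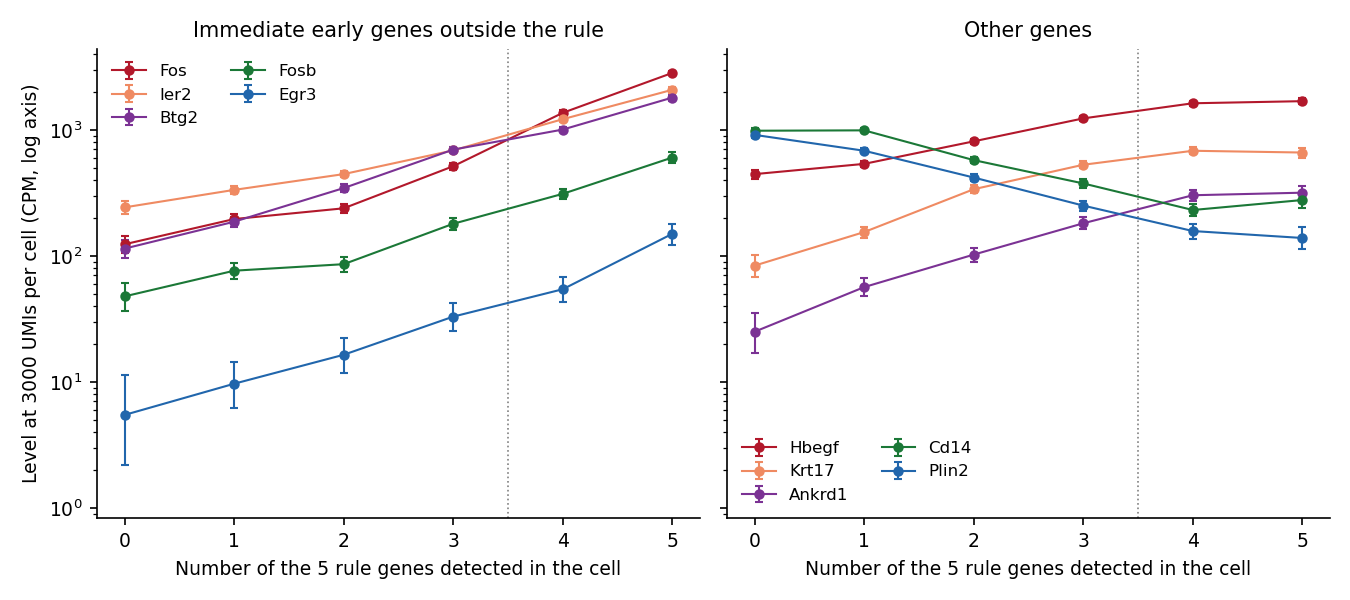
CPM (log axis) of 5 immediate early genes outside the rule (left) and 5 other genes (right) against the number of rule genes detected, in C3-TAg casein-low receptor-negative cells thinned to 3000 UMIs, with exact 95% counting intervals. The dotted line marks the member limit, and Fos climbs to 2827 CPM while Hbegf levels off near 1688 CPM and Plin2 descends to 139 CPM.

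The members were not 1 state. Clusters were built from all 3494 cells and were numbered 1 to 9. The rule genes, the filter genes, the immediate early factors and the feedback inhibitors of MAP kinase signalling were left out, and could not appear as leading genes. Other genes that were higher in members, among them Btg2, Zfp36 and Tnf, stayed in. The share of members in a cluster is therefore not independent of the RNAs that go with the rule. Members made up 71.9% of cluster 4 (205 of 285 cells, 66.3 to 77.1%), whose leading genes were Hspa1a, Irf1, Tnf, Ccnl1 and Btg2. They made up 41.6% of cluster 8 (32 of 77), led by the mitotic genes Kif20a, Hmmr and Ccnb2. In cluster 3 they made up 33.7% (254 of 754), and its leading genes were histone genes and the mitotic genes Ube2c and Kif11. In cluster 1, led by Wfdc17, Fgfbp1 and Tagln, with the S phase genes Mcm6 and Ung further down, 14.5% were members (165 of 1136). E2F and S phase genes summed to 2632 CPM in members of cluster 3 and 4140 CPM in those of cluster 1. G2M genes summed to 3557 and 1365 CPM in the same members. Clusters 6, 7, 2 and 9 held 10, 14, 11 and 5 members (17.2%, 12.3%, 7.28% and 6.58%). Cluster 5, led by Plin2 and Trf, had the lowest share at 2.73% (23 of 843). Median depth was 11659 UMIs in cluster 3 and 7512 in cluster 1, and at 3000 UMIs the share with at least 3 of the genes was 83.0% in cluster 4, 46.5% in cluster 8, 23.5% in cluster 3, 14.7% in cluster 1 and 2.04% in cluster 5, so the order of these clusters was the same. Cluster 3 held 35.3% of all members, cluster 4 held 28.5% and cluster 1 held 22.9%.

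**Figure D3:**
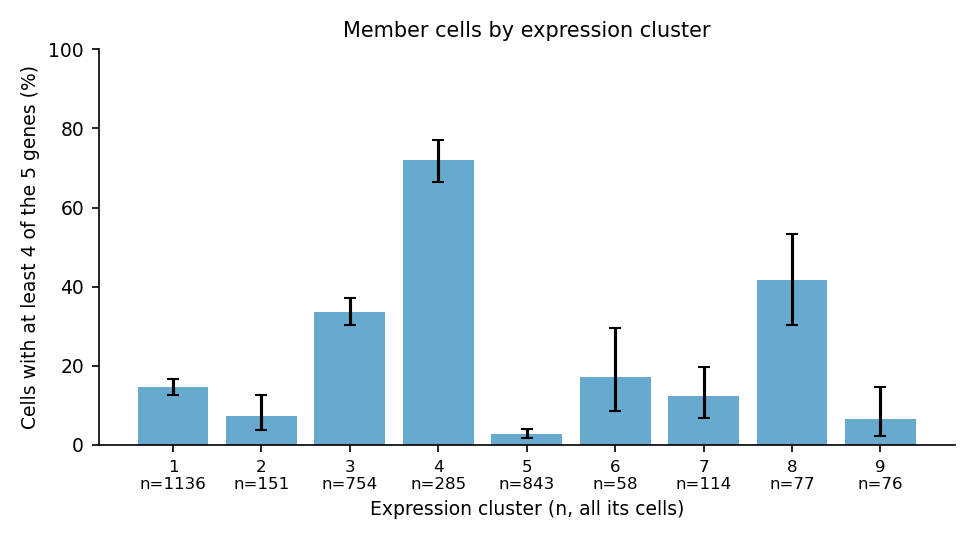
Share of cells with at least 4 of the 5 rule genes in each expression cluster of the 3494 C3-TAg casein-low receptor-negative cells, at full depth, with exact 95% binomial intervals. Cluster 4 is at 71.9%, clusters 8 and 3 at 41.6% and 33.7%, and cluster 5 at 2.73%.

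The label of immediate-early-high cells held very unequally across these clusters. Fos was at 4918 CPM in the members of cluster 4 and 2534 CPM in those of cluster 8, but at 370 CPM in those of cluster 1 and 231 CPM in those of cluster 3. The comparison cells of cluster 4, with at most 3 rule genes, had 2539 CPM of Fos, more than the members of clusters 1 and 3. Fosb followed the same order, with 1039, 271, 107 and 92.7 CPM in members of clusters 4, 8, 1 and 3, and Klf2 with 163, 33.3, 15.4 and 5.33 CPM. Hbegf had another order. It was at 1877 CPM in members of cluster 3, 1735 CPM in cluster 1, 1187 CPM in cluster 4 and 491 CPM in cluster 8. Krt17 was likewise at 921 and 706 CPM in members of clusters 3 and 1 and at 270 and 235 CPM in those of clusters 4 and 8. Among these 4 clusters, Fos was thus highest in members of clusters 4 and 8, and Krt17 in members of clusters 1 and 3.

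**Figure D4:**
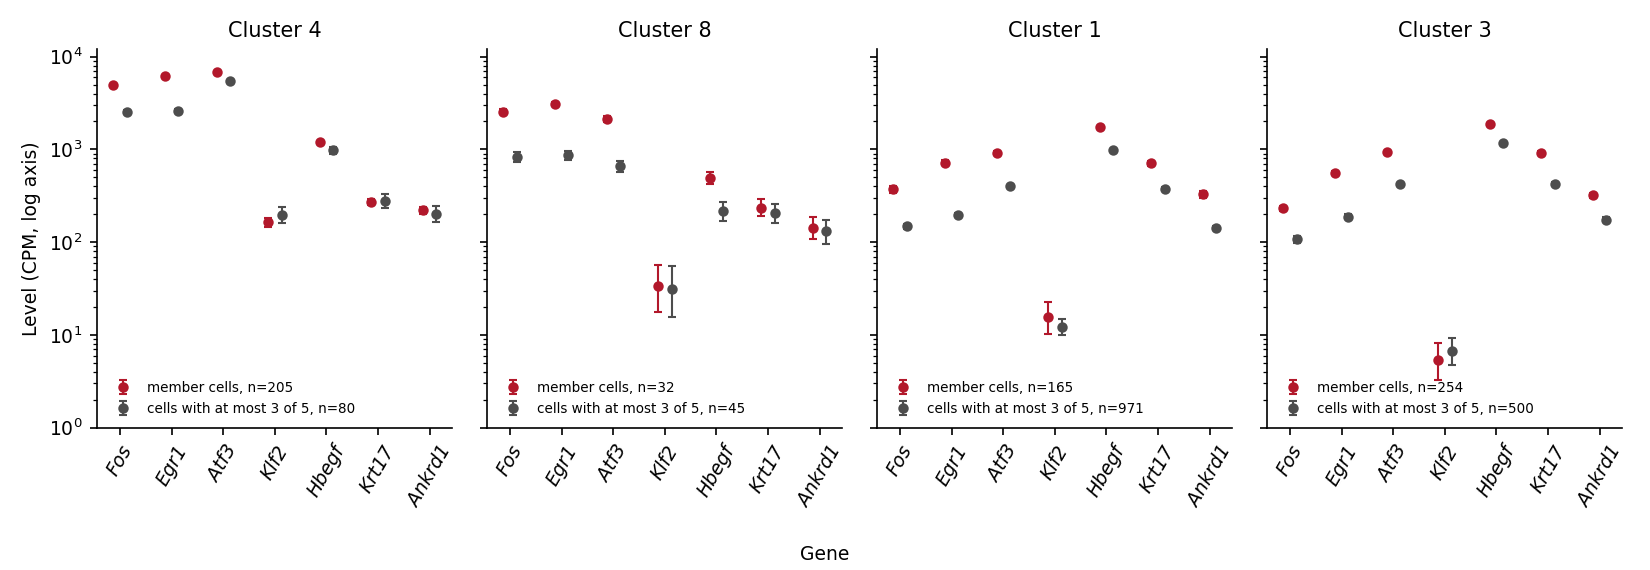
CPM (log axis) of 7 genes in member cells and in cells with at most 3 of the 5 rule genes, in clusters 4, 8, 1 and 3, with exact 95% counting intervals. Fos reaches 4918 CPM in member cells of cluster 4 and 231 CPM in those of cluster 3, whereas Hbegf and Krt17 are highest in clusters 1 and 3.

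Within clusters, differences in immediate early factors were smaller. Within cluster 1, Fos was at 370 CPM in members and 148 CPM in all comparison cells, without depth matching. In 165 depth-matched pairs of cluster 1, 11 of 28 immediate early factors were higher and none lower (median 0.52), where 6.42% of all genes were higher and 6.48% lower. In cluster 3 (254 pairs), 7 of 28 were higher and 2 lower (0.32), where 3.98% of all genes were higher and 5.01% lower. In cluster 8 (32 pairs), 12 of 26 were higher and 1 lower (0.53), where 12.3% of all genes were higher and 12.1% lower. In cluster 5 (23 pairs), 9 of 23 were higher and none lower (0.45), where 11.4% of all genes were higher and 11.5% lower. Cluster 4 had 205 members and gave only 80 pairs, which took all its comparison cells and its deepest members. Matching could thus not even out depth there, and the part of depth in its values was not tested. In these 80 pairs, 5 of 29 factors were higher and 1 lower (0.17), and the share higher was near that of all genes (16.2% higher and 6.26% lower). In the same pairs 17 of 24 G2M genes were higher (0.71). Klf2 did not exceed its cluster background, with 163 CPM in all members and 198 CPM in all comparison cells of cluster 4, without depth matching. When members were paired within their own clusters, an alternative chosen after seeing the data, 594 of the 719 members found a partner. Those left out were the shallower members of cluster 4, which ran out of comparison cells. The set of members thus differs from that of the main comparison. In the 594 pairs, 485 genes were higher (4.23%) and 365 lower (3.18%). The immediate early median was 0.47 and the milk gene median was −0.049. Cluster by cluster the milk genes were less even. Medians were −0.51 in cluster 1 (4 of 8 lower, none higher), −0.073 in cluster 3 (1 of 10 lower, 1 higher) and −0.52 in cluster 4 (3 of 8 lower, none higher). They were −0.29 in cluster 5 (2 of 8 lower, none higher) and 0.28 in cluster 8 (1 of 3 lower, 1 higher). These counts are small and are to be read beside the shares of all genes in each cluster given above.

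The rule was met rarely elsewhere. At 3000 UMIs per cell, 6.75% of C3-TAg casein-low receptor-negative cells met it, against 0.545% of the same kind of WT cells (3 of 550, 0.113 to 1.59%). In casein-rich receptor-negative cells the shares were 0.381% (10 of 2625) in C3-TAg and 0.0264% (1 of 3792) in WT. In receptor-expressing cells they were 2.07% (48 of 2322) in C3-TAg and 0 of 2991 in WT, where a count of 0 allows up to 3 cells (exact interval 0 to 0.123%). In each of the 3 kinds of cells the exact intervals of C3-TAg and WT did not overlap, but genotype and library cannot be told apart here. At full depth the counts were 719 of 3494, 113 of 2627 and 211 of 2337 in C3-TAg, against 9 of 579, 27 of 3811 and 18 of 3016 in WT. Scrublet marked 4.73% of members, but 44.2% of the C3-TAg casein-rich cells and 38.4% of the C3-TAg receptor-expressing cells with at least 4 genes. Their part in those shares was not tested.

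**Figure D5:**
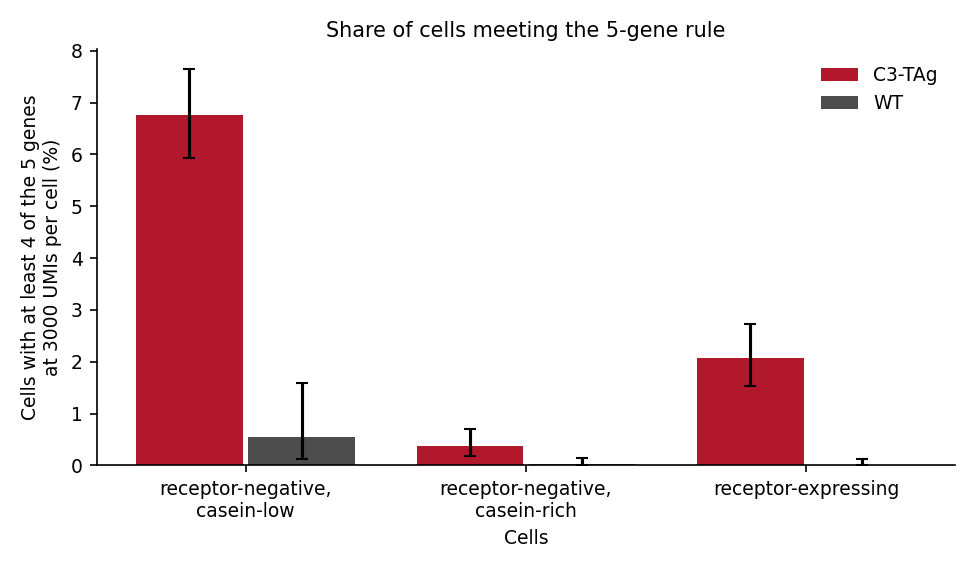
Share of cells in which at least 4 of the 5 rule genes had a UMI after thinning to 3000 UMIs per cell, for 3 kinds of cells of the C3-TAg and WT libraries, with exact 95% binomial intervals. The C3-TAg casein-low receptor-negative cells are at 6.75% and the same WT cells at 0.545%, and none of 2991 WT receptor-expressing cells met the rule.

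Where the rule was met in other cells, between 11 and 19 of the measured immediate early factors were higher than in depth-matched cells. In C3-TAg casein-rich cells, 19 of 29 were higher and none lower (median 0.96), where 10.8% of all genes were higher and 4.48% lower. In C3-TAg receptor-expressing cells, 16 of 29 were higher (0.60; 13.7% and 8.3% of all genes). In the 36 WT receptor-negative cells, 19 of 28 were higher and 1 lower (1.06; 13.3% and 12.9%), and in the 18 WT receptor-expressing cells 11 of 23 were higher and 3 lower (0.46; 7.88% and 18.5%). Fos was at 1669 CPM in these WT receptor-negative cells and 324 CPM in their matched cells. Hspa1a was at 87.1 CPM in C3-TAg members, against 1120 CPM in the WT receptor-negative cells that met the rule. In cells with at most 3 genes, Hspa1a was at 27.5 CPM in C3-TAg casein-low cells. It was at 146 CPM in WT casein-low and 35.8 CPM in WT casein-rich cells with at most 3 genes. How many of the 36 WT cells held the Hspa1a UMIs was not examined. Tnf was at 30.7 CPM in the WT receptor-negative cells that met the rule and 16.3 CPM in their matched cells (log2 ratio 0.92, −0.33 to 2.26), an interval that spans no difference. The 9 WT casein-low cells had 1092 CPM of Krt14 and 214 CPM of Acta2, against 127 and 6.78 CPM in WT casein-low cells with at most 3 genes. Both genes also moved with the rule in the other WT cells. Krt14 and Acta2 were at 132 and 26.0 CPM in the WT casein-rich cells that met it, against 25.3 and 2.53 CPM in those with at most 3 genes, and at 548 and 221 CPM in the WT receptor-expressing cells that met it, against 4.95 and 2.22 CPM. The part of basal cells or doublets in the WT values was not tested.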

How the data were processed

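Cells of 2 libraries, 1 C3-TAg and 1 WT, were analysed. The deposited matrices hold UMI counts per gene and barcode, and the submitters' processing notes name Cell Ranger 3.1.0 and the mm10 build; the barcode calling is not stated in them. Depth was 91932121 UMIs in the C3-TAg library and 91133082 UMIs in the WT library. Kept barcodes had at least 500 genes, 1000 UMIs and at most 10% mitochondrial UMIs. Called doublets were kept in the main comparison and removed in an alternative. Members were paired without replacement with the nearest comparison cell by UMI total, counts were summed over each set without the 5 rule genes, and ratios of CPM got exact conditional Poisson intervals (95%); shares have exact Clopper-Pearson intervals. Both cover counting error only. A gene needed 20 UMIs over both sets and was called from 1.5-fold; no p-value was computed, since each group is 1 library. Thinning drew 3000 UMIs per cell. Clusters came from 2000 variable genes, 30 principal components, 15 neighbours and Leiden resolution 0.5, with Scanpy 1.11.5, SciPy 1.17.1 and NumPy 2.4.6; they were given numbers and no cell type names. The ratio step was run on simulated Poisson counts of 3413 genes for this comparison. Direction was right for 100% of genes changed 1.5-fold, 2-fold or 4-fold, and intervals covered the true value in 94.9% of unchanged genes. Such counts hold counting error only and no spread between cells. The run therefore checks the calculation and not the coverage of the intervals in these cells.

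Members, gene lists and named genes were chosen with earlier results of these data known. Named genes were the 12 highest and 12 lowest ratios at 50 CPM or more, up to 3 at either end of each of 35 lists at 20 CPM or more, the rule genes, Sox9 and Vtcn1; Jun, Junb and the genes given by cluster, by detected gene or in other cells were picked after their values were seen. Promoters are RefSeq entries on GRCm38.p6. Of the rule genes, Egr1 and Arc were not matched to an entry and their promoters were not analysed. The alternatives tried changed the depth treatment, the member and comparison limits, the casein, mitochondrial and low-count filters, doublets, scaling, cell cycle mix and clusters.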

Additional observations from a re-analysis of the deposited data

Results flagged for a closer look

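Several genes and a list that were lower in C3-TAg members than in matched cells were higher in WT cells meeting the same rule. None of these differences between libraries was tested, and the WT sets are small, with 36 receptor-negative and 18 receptor-expressing cells. Apoe had log2 ratios of 2.25 in WT receptor-negative cells and 2.27 in WT receptor-expressing cells, against −1.56 in C3-TAg members. Hmox1 had 0.95 and 0.82 in the same WT cells, against −1.44. Muc4 was at 0.65 in WT receptor-negative cells, against −1.47, and Spp1 at 1.26 in WT receptor-expressing cells, against −1.44. Fabp4 was at 7.79 in WT receptor-negative cells, where matched cells had 1 UMI, and at −7.05 in C3-TAg members, where 1 matched cell held nearly all UMIs. The milk gene list had a median of 0.60 in WT receptor-expressing cells, of which 33.3% were called doublets, against −1.03 in C3-TAg members.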

How the results depend on the processing

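No paired analysis was possible because each genotype was 1 library and the labels give no replicate numbers. Each value below is set against the main one of the report, and the cause of a change was not tested where none is named. The number of member cells was 1358 with at least 3 of the 5 genes, 248 with all 5 and 231 when detection was counted at 3000 UMIs. All 443 cells with 0 of the 5 genes (median 6713 UMIs) were paired with the 443 deepest members. Depth was therefore not matched in that setting, and its part in the values was not tested. Against cells with 0 of the 5 genes (443 pairs), 1977 genes were higher, and list medians were 0.80 for SRF and YAP targets, 1.58 for chemokines, cytokines and growth factors, 0.37 for the integrated stress response, 1.35 for G2M, 0.078 for matrix and mesenchymal, 0.37 for fetal-state and SOX factors, 0.28 for MHC class I, 0.13 for interferon-stimulated and −0.15 for mitochondrially encoded genes. With no casein filter, 1943 genes were higher, and medians were 0.96 for SRF and YAP targets, 0.90 for NF-kB feedback genes and subunits, 1.21 for chemokines, cytokines and growth factors, 0.34 for E2F and S phase, 0.66 for G2M, −1.90 for milk genes outside the rule, 0.20 for matrix and mesenchymal, 0.46 for fetal-state and SOX factors, 0.16 for the Wnt pathway, 0.26 for MHC class I and −0.13 for mitochondrially encoded genes. Higher calls were 69.2% and 70.4% of all calls in these 2 settings, against 54.5% in the main comparison. With no filter beyond 1 UMI, which lets in genes of few counts, 2389 genes were higher and 2540 lower. With 5 of 5 genes, medians were 0.81 for NF-kB feedback genes and subunits, 0.31 for interferon-stimulated and 0.39 for circadian and glucocorticoid response genes. With at least 3 genes, they were 0.015 for E2F and S phase, 0.017 for matrix and mesenchymal and 0.14 for interferon-stimulated genes. With casein under 0.1%, MHC class II was at 0.15 and interferon-stimulated genes at −0.39. G2M was at 0.55 without matching and at 0.69 with thinned cells, where mitochondrially encoded genes were at −0.11. E2F and S phase was at 0.052 with TMM scaling, which moved all ratios by 0.03, and at 0.054 in cells with at least 2 G2M UMIs; cells with fewer gave 15 pairs, under the minimum of 50, and no value.

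The next 3 alternatives were chosen after seeing the data. Pairing within the same expression cluster gave 594 pairs and left out the shallower members of cluster 4. In these pairs 485 genes were higher and 365 lower. Medians were 0.47 for other immediate early transcription factors, 0.24 for NF-kB feedback genes and subunits, −0.016 for G2M, −0.049 for milk genes outside the rule and 0.032 for MHC class II. The log2 ratio turned to 0.50 for Glycam1, 0.026 for Trf and 0.11 for Xbp1. Without cluster 4, 620 genes were higher and 735 lower, other immediate early transcription factors were at 0.56 and E2F and S phase at 0.025. Without clusters 6 and 9, matrix and mesenchymal genes were at 0.078 and circadian and glucocorticoid response genes at 0.34, and Slpi (0.15), Sparc (0.39) and Vim (0.39) turned. Sparc also turned against cells with 0 genes (0.13) and with no casein filter (0.17), and Tslp turned with 5 of 5 genes (−0.57). Depth limits Egr2 and Arc, which membership often rested on by 1 UMI.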
